A study of Mus musculus with 18 samples.

Results

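Small RNA of mouse sperm was compared between Isca2 knockout (KO, Isca2 -/-) and wild-type (WT) samples, with 2 libraries in each group, which are 4 of the 18 samples of the series. The members were all sequences listed in these 4 libraries, chosen by the sample labels alone. The other samples of the series are MII oocytes and blastocysts and were not used here. The labels give no strain or age, and they do not say whether the replicates came from separate animals, so the p-values below describe only the spread among these libraries, and that spread may be technical. Isca2 messenger RNA cannot be checked in reads of 20 to 45 nucleotides (nt), so the genotype rests on the labels.

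ISCA2 is a mitochondrial protein that helps to assemble iron-sulfur clusters. Mature sperm are almost free of translation and carry a distinctive small RNA load, made largely of fragments of transfer RNA (tRNA) and ribosomal RNA (rRNA), with microRNAs and Piwi-interacting RNAs (piRNAs). Fragments from the 5′ side of tRNA-Glu and tRNA-Gly and the microRNA miR-34c are well-known parts of the mouse sperm load, and some microRNAs are gained by sperm in the epididymis.

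The sequences below are abundant fragments of the 4 libraries and some minor forms of them, each written 5′ to 3′ as DNA letters. They are shown because pairs of them differ only at the 3′ end, or at 1 base. They cover only part of the length peaks. Capitals mark the bases that the longer form has beyond the shorter one, or the changed base of a variant.
28S fragment, 26 nt: gacgtggcgacccgctgaatttAAGC
28S fragment, 22 nt: gacgtggcgacccgctgaattt
5.8S fragment, 36 nt: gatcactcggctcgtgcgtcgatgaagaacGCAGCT
5.8S fragment, 30 nt: gatcactcggctcgtgcgtcgatgaagaaC
5.8S fragment, 29 nt: gatcactcggctcgtgcgtcgatgaagaa
tRNA-Glu-CTC fragment, 21 nt: tggttaggattcggcgctctC
tRNA-Glu-CTC fragment, 20 nt: tggttaggattcggcgctct
tRNA-Glu-CTC variant, 21 nt: tggttaggattcggcgTtctc
mt tRNA-His fragment, 27 nt: caaaaaacattagactgtgaatctgAC
mt tRNA-His fragment, 25 nt: caaaaaacattagactgtgaatctg
mt tRNA-His variant, 27 nt: caaaaaacattagactgtgaatctgaA

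The WT libraries held 205993 reads in replicate 1 and 703036 in replicate 2, and the KO libraries held 703133 and 746812. WT replicate 2 stood apart from the other 3 libraries. Its most abundant sequence took 34.2% of its reads, against 11.7% to 14.9% in the others, and only 34.4% of its reads were listed as matching the genome, against 63.3%, 69.6% and 70.8%. Without nuclear rRNA reads the matched share was close to the others, at 83.9% against 86.3%, 86.2% and 90.0%. At an equal depth of 205993 reads, 19584 distinct sequences were expected in it, against 31111 to 40097 in the other 3. When reads were laid out by class, length and genome match, 37.3% of reads would have to move to turn one WT profile into the other. WT replicate 1 was 18.3% and 18.9% away from the KO libraries, which were 20.02% apart. Without nuclear rRNA reads the WT libraries were still 27.98% apart, against 17.5% and 19.2% between WT replicate 1 and KO. The profiles thus differed more within WT than between WT replicate 1 and either KO library.

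**Figure D1:**
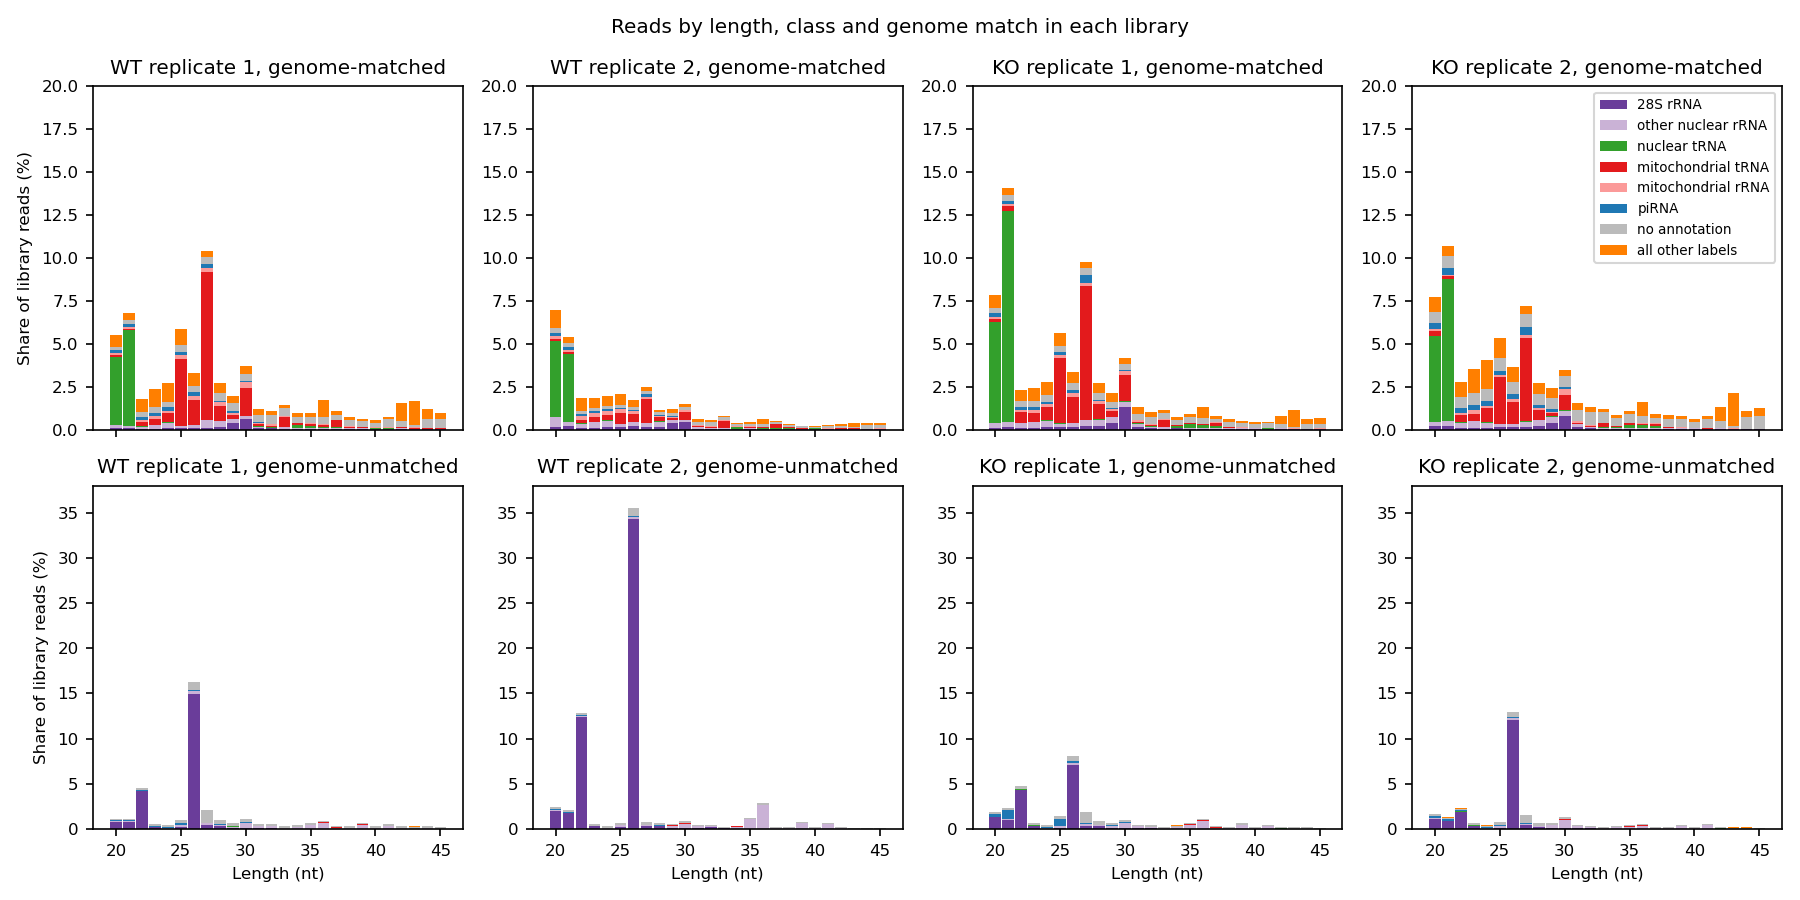
Share of each library's reads (%) by length in nt, stacked by class, for genome-matched reads (top row) and genome-unmatched reads (bottom row, on a wider axis), with 1 column for each of the 4 libraries. The unmatched reads form peaks of 28S rRNA at 22 and 26 nt that are highest in WT replicate 2, and the matched reads form peaks of nuclear tRNA at 20 and 21 nt and of mitochondrial tRNA at 27 nt.

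Each read was placed in 1 of 15 classes from the deposited annotation. Nuclear rRNA fragments, which come from the cytosolic ribosome, made up 32.8% and 66.0% of WT reads and 28.1% and 29.1% of KO reads. The mean was 49.4% ± 23.5 in WT and 28.6% ± 0.705 in KO (SD, n = 2 each). Both KO libraries lay below both WT libraries, but KO lay 20.8 percentage points below WT with both WT libraries and 4.21 points below it without WT replicate 2. With 2 libraries against 2, the two-sided exact permutation test cannot give a p below 0.333, so no class share could pass a threshold, and shares are given as descriptions.

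28S rRNA, the large RNA of the 60S subunit, was the largest class by mean share, with 25.2% and 55.2% of WT reads and 19.3% and 21.01% of KO reads. In each library it peaked at 26 nt. A single 5′ start, that of the 26-nt fragment printed above, carried 83.3% and 91.7% of the 28S reads in WT and 72.0% and 76.3% in KO. The 26-nt form took 14.9%, 34.2%, 7.01% and 12.0% of all reads in WT replicates 1 and 2 and KO replicates 1 and 2. The 22-nt form, which lacks the last AAGC, took 4.15%, 12.4%, 4.26% and 1.82%. Of the reads of both forms, 78.2% and 73.4% were the longer one in WT and 62.2% and 86.8% in KO, so the 3′ end varied most between the KO replicates and the groups overlapped. Few 28S reads matched the genome, 9.30% and 4.59% in WT and 19.5% and 15.8% in KO, with both KO libraries above both WT libraries. 28S reads were also 62.2%, 80.3%, 51.2% and 60.7% of all genome-unmatched reads.

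5.8S rRNA, the short RNA that pairs with 28S, took 3.94% and 7.04% of WT reads and 4.25% and 3.81% of KO reads, and these ranges overlapped. None of its reads matched the genome in the 4 libraries. Its reads were most often 36 nt in 3 libraries and 30 nt in KO replicate 2. Among reads of the 36-nt and 30-nt forms printed above, the longer form was 63.0% and 86.7% in WT and 66.5% and 29.6% in KO. The mean length of 5.8S reads was 33.98 ± 1.11 nt in WT and 32.7 ± 0.495 nt in KO (SD, n = 2 each), with both KO libraries below both WT libraries. Of 15 classes, only 2 separated the groups in mean length, both lower in KO. 18S rRNA, the RNA of the small subunit, took between 2.79% and 2.97% of reads in every library. Reads with a 45S or 4.5S label, which include precursor rRNA, took 0.276% and 0.207% in WT and 0.524% and 0.613% in KO, and the groups did not overlap. Reads without annotation but with the same first 16 bases as the leading 45S family took 0.804% and 0.326% in WT and 0.425% and 1.16% in KO. With them added, a step chosen after seeing the data, the shares were 1.08% and 0.533% in WT and 0.949% and 1.78% in KO, and the groups overlapped. 5S rRNA took 0.642% and 0.7503% in WT and 1.05% and 0.847% in KO.

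Nuclear tRNA reads were 10.5% and 9.10% of all reads in WT and 19.4% and 14.4% in KO, so that both KO libraries lay above both WT libraries. Without nuclear rRNA reads the same class took 15.7% and 26.8% in WT and 26.97% and 20.3% in KO, and the groups overlapped. Mitochondrial tRNA reads were 20.3% and 5.50% of WT reads and 19.6% and 13.6% of KO reads. Without nuclear rRNA reads their mean was 23.2% in WT (SD 9.97, n = 2) and 23.2% in KO (SD 5.65, n = 2). Of the 15 classes, 5 had both KO libraries above both WT libraries and 1 had both below over all reads. Over reads other than nuclear rRNA, 1 of 10 classes was higher (piRNA) and 1 was lower (mitochondrial rRNA). Under random assignment of 2 libraries to each group, a class separates in one direction or the other with a probability of 0.333. These counts are therefore descriptions and not a result about the classes, and the classes that separated depended on the denominator.

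**Figure D2:**
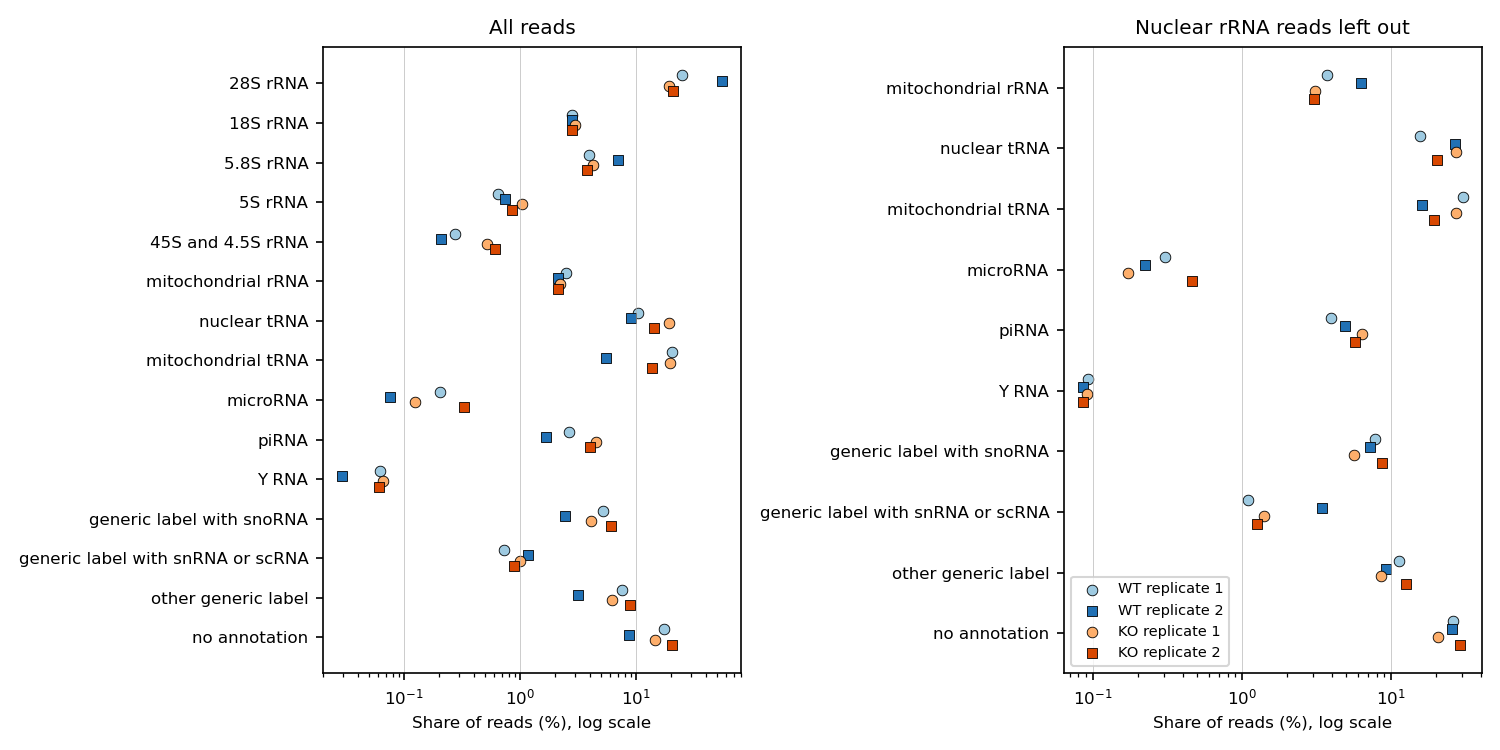
Share of reads (%, log scale) of each annotation class in the 4 libraries, over all reads (left) and without nuclear rRNA reads (right), with 1 point per library. WT replicate 2 has the highest 28S share (55.2%), and nuclear tRNA separates the groups on the left but not on the right.

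Within nuclear tRNA, tRNA-Glu-CTC was the main parent, with 77.8% and 63.1% of the class in WT and 86.9% and 75.1% in KO. It was followed by tRNA-Glu-TTC, with 9.35% and 20.4% in WT and 3.17% and 9.42% in KO, and tRNA-Gly-GCC, with 8.39% and 8.50% in WT and 6.71% and 11.4% in KO. The reads were short. Between 92.2% and 95.1% of nuclear tRNA reads were 20 to 24 nt long, and only 2.77% and 2.14% in WT and 1.20% and 1.28% in KO were 30 to 34 nt, the window of the longer fragments cut at the anticodon. The annotation named no tRNA end for 99.4% to 99.9% of mitochondrial tRNA reads, and it named a 5′ end for at most 0.0203% of nuclear tRNA reads in a library. Among reads of the tRNA-Glu-CTC pair printed above, the 21-nt form was 69.8% and 43.0% in WT and 88.6% and 80.9% in KO. Both KO libraries lay above both WT libraries for this last base. The reads of the 21-nt form numbered 9357 and 14252 in WT and 82000 and 51285 in KO. As shares of all reads in these libraries of unequal depth, they were 4.54% and 2.03% in WT and 11.7% and 6.87% in KO. The printed 20-nt form had 4051 and 18877 reads in WT and 10568 and 12109 in KO. Another 20-nt read, not printed, lacks the first base of the 21-nt form and keeps its last. It had 3268 and 6631 reads in WT and 25075 and 16643 in KO.

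Mitochondrial tRNA reads came almost wholly from tRNA-His, which carried 95.9% and 92.8% of the class in WT and 96.9% and 91.2% in KO. Its gene, TrnH, lies on the mitochondrial genome (MT) from 11546 to 11612 in the RefSeq annotation of GRCm38.p6. The 27-nt fragment took 8.47% and 1.295% of WT reads and 7.60% and 4.72% of KO reads. Within the printed pair the share was steady: the 27-nt form made up 75.7%, 76.6%, 75.7% and 72.8% of the reads of the 27-nt and 25-nt forms. Over all lengths with this 5′ start, WT replicate 2 differed. The 27-nt form was 54.3% and 38.2% of these reads in WT and 53.0% and 51.1% in KO. A 33-nt form was 3.33% and 10.4% in WT and 2.21% and 1.96% in KO. By mean share, the most abundant sequence without annotation was a variant of this fragment, C27A, where positions are counted from 1 at the 5′ end and the annotated form comes first. It did not match the genome, and in WT replicate 2 another unannotated sequence had more reads. The variant made up 10.6% and 10.9% of the reads of both 27-nt forms in WT and 10.3% and 11.8% in KO. Its share of this pair was thus alike in the 4 libraries although the fragment itself varied. The changed base is the last one, so a 26-nt form with an added A would read the same. The class had 1522 and 486 26-nt reads with this start in WT and 4525 and 4091 in KO. The variant had 2066 and 1117, and 6149 and 4734, which was less even beside them. The origin of its last base was not tested. The class mean length was 27.7 ± 0.344 nt in WT and 26.8 ± 0.0884 nt in KO (SD, n = 2 each), with both KO libraries below both WT libraries.

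**Figure D3:**
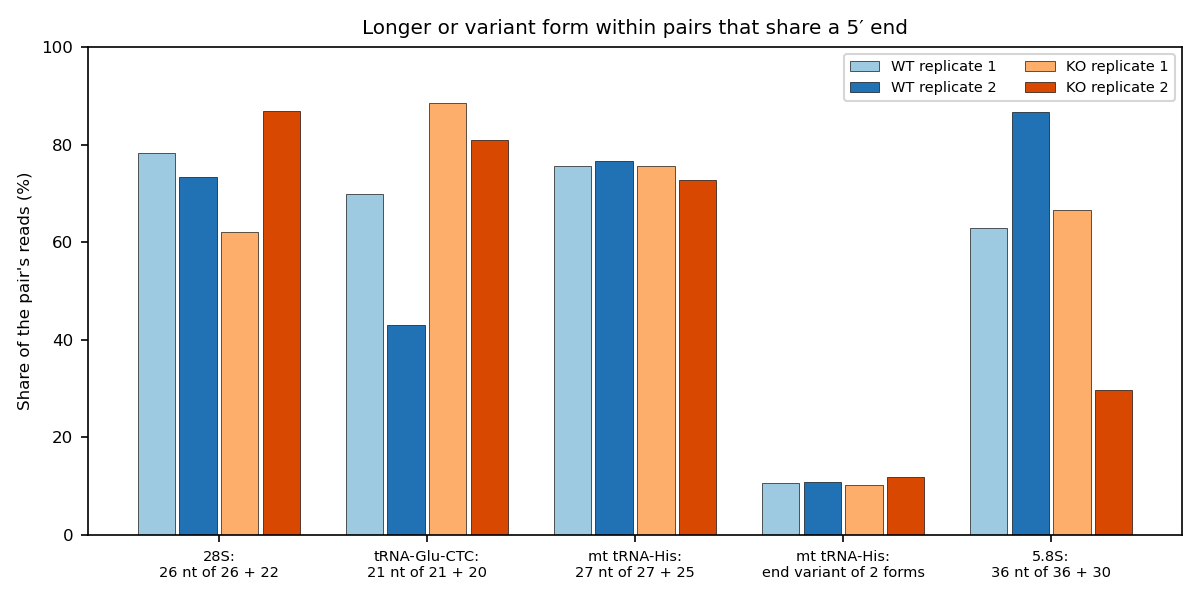
Share (%) of the longer form, or for the fourth set of bars of the C27A variant, among the reads of 2 forms with a common 5′ end, with 1 bar per library. The tRNA-Glu-CTC bars are higher in KO (88.6% and 80.9%) than in WT (69.8% and 43.0%), and the 28S and 5.8S bars vary within a group.

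Reads without annotation were 17.4% and 8.71% of WT reads and 14.7% and 20.4% of KO reads. Of those that also failed to match the genome, 3212 of 16058 and 10897 of 31525 in WT, and 10024 of 46357 and 9295 of 39554 in KO, were 1 substitution away from an annotated sequence with at least 10 times as many reads. Mitochondrial rRNA, the RNA of the mitochondrial ribosome, took 3.69% and 6.25% of WT reads and 3.11% and 3.03% of KO reads once nuclear rRNA was left out. Strings of broad words that included snoRNA, the guides of RNA modification, took 7.75% and 7.26% of these reads in WT and 5.65% and 8.63% in KO. They were most often 43 nt long in 3 libraries and 20 nt in WT replicate 2. Strings with snRNA or scRNA took 1.09% and 3.44% in WT and 1.41% and 1.26% in KO, and other broad labels 11.3% and 9.25% in WT and 8.60% and 12.6% in KO. Y RNA, a cofactor of Ro ribonucleoproteins, took 0.0925% and 0.0858% in WT and 0.0910% and 0.0863% in KO. The groups overlapped in each of these 4 classes.

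Reads labelled piRNA were 3.96% and 4.90% of non-rRNA reads in WT and 6.33% and 5.69% in KO, with a mean of 4.43% ± 0.665 in WT and 6.01% ± 0.454 in KO (SD, n = 2 each). The groups did not overlap. In KO replicate 1, however, 29.3% of these reads came from one family of sequences with a common 5′ start that did not match the genome, against 0.493% to 0.838% in the other libraries. Without that family the shares were 3.94%, 4.86%, 4.47% and 5.66%, and the groups overlapped. With the class and the total both limited to genome-matched reads, the shares were 2.91%, 3.10%, 2.76% and 4.24%, which overlapped as well. Another piRNA-labelled family began inside the mt tRNA-His fragment printed above. It held 8.04% and 1.67% of the class in WT and 4.38% and 3.80% in KO. A further such family, which began 1 base earlier, held 3.49% and 1.18% in WT and 3.32% and 2.63% in KO. Mature piRNAs commonly begin with U. Here 25.4% and 26.8% of piRNA-labelled reads in WT and 18.7% and 25.5% in KO began with T, and their most frequent length was 20 to 25 nt in the 4 libraries.

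**Figure D4:**
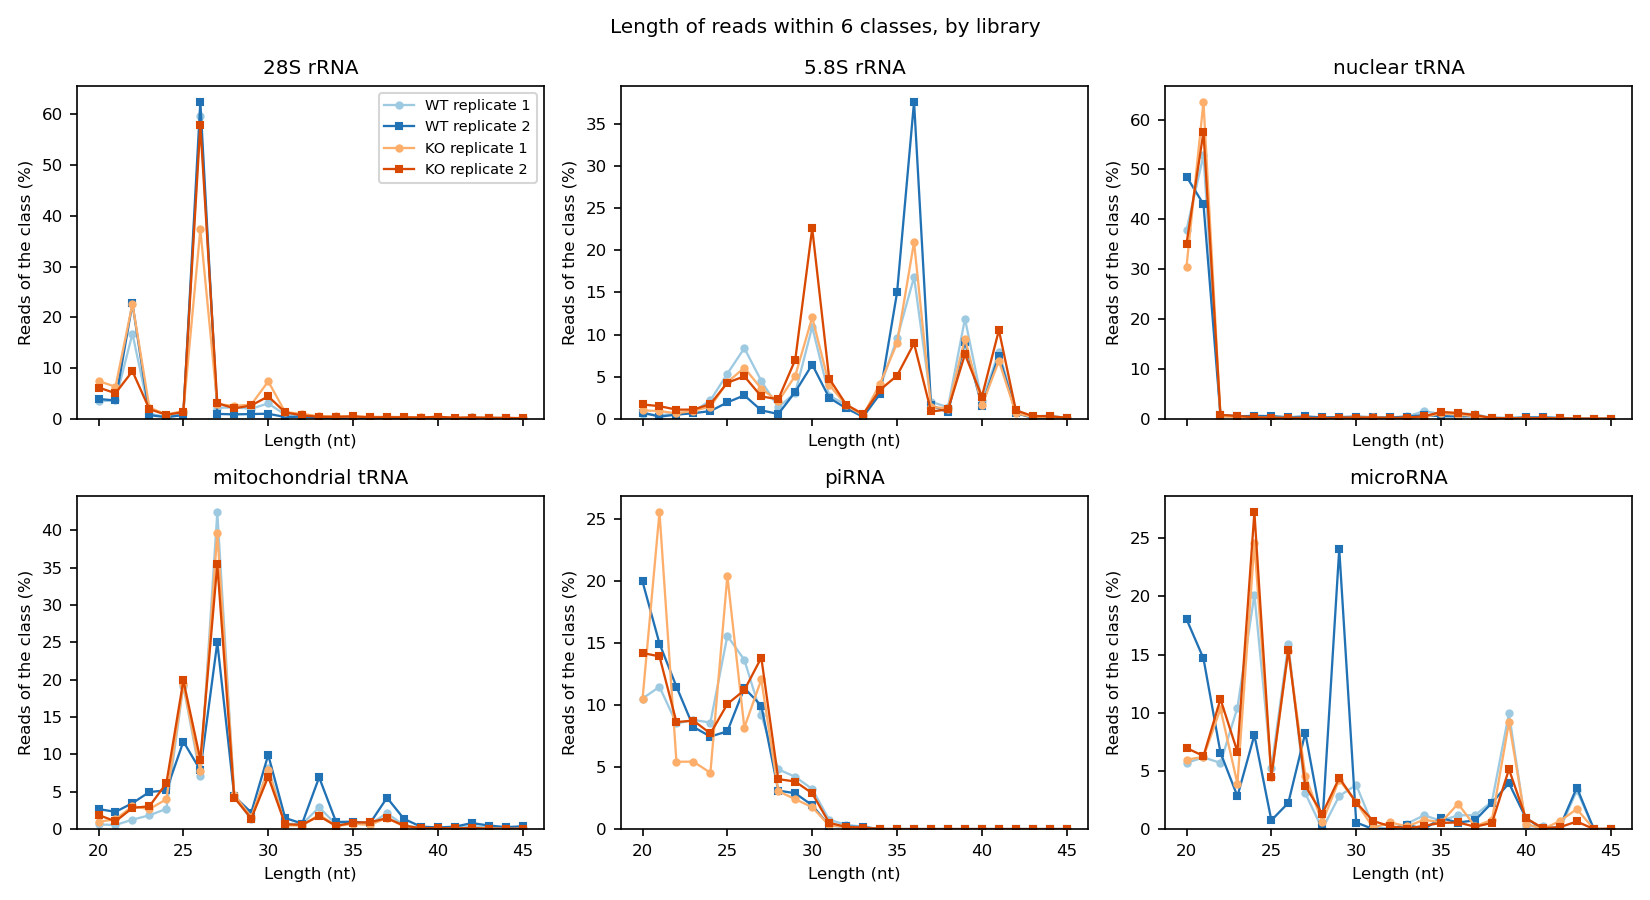
Share of reads (%) at each length in nt within 6 classes, with 1 line per library. The 28S lines peak at 26 nt and the nuclear tRNA lines at 20 or 21 nt, the 5.8S peak moves between 36 and 30 nt, and the 21-nt and 25-nt piRNA peaks of KO replicate 1 stand above the other lines.

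MicroRNAs were rare, with 0.205% and 0.0757% of WT reads and 0.124% and 0.328% of KO reads. One name, mir-3535, held 82.6% of the class on average, with 350 and 379 reads in WT and 775 and 2136 in KO. Of 18 microRNAs known for spermatogenic cells, only mir-465c (3 reads in WT replicate 1) and mir-881 (1 read in WT replicate 2) had any. mir-34b and mir-34c, which mark late spermatogenic cells and sperm, had 0 reads. That allows a share of up to 0.00146% in WT replicate 1 and at most 0.000427% in the others, by counting error alone. The labelled cell type thus lacked its usual microRNA markers. Of 18 microRNAs known from epididymis, 12 had reads, 35 and 101 in WT and 42 and 166 in KO, led by mir-10b and mir-148a. mir-10b had 22 and 90 reads in WT and 24 and 132 in KO, and mir-148a had 5, 2, 5 and 14. Of 10 microRNAs of blood, muscle and other cells, 1 had a read.

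Even where a microRNA name was given, the reads were seldom its mature form. Only 4, 1, 1 and 6 reads in WT replicates 1 and 2 and KO replicates 1 and 2 were identical to any of 1674 mature mouse sequences of the RefSeq table (GRCm38.p6). By a looser measure, class reads that equalled, contained or lay within a mature sequence numbered 36 and 29 in WT and 29 and 76 in KO. These were 8.53% and 5.45% of the class in WT and 3.33% and 3.10% in KO. The hairpin of mir-10b (chr2:74726070-74726137, plus strand) gives an example of a read that was not the mature form. In the hairpin, capitals mark the span of its most abundant read, and in the mature sequence they mark the seed, bases 2 to 8, through which it recognises targets.
mir-10b hairpin: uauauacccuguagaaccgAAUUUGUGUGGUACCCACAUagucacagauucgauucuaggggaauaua
mmu-miR-10b-5p: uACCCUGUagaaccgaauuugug
most abundant mir-10b read: aatttgtgtggtacccacat

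That read covered bases 20 to 39 of the hairpin, while the mature form covers bases 5 to 27, so that they shared 8 bases and the read held no part of the seed. It made up 40.9% and 94.4% of mir-10b reads in WT and 83.3% and 84.1% in KO. The mature form itself was read once in the 4 libraries, in KO replicate 2.

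Read sums per annotation name were tested with edgeR's quasi-likelihood test across 87 names. None was called in either direction (0% higher and 0% lower) and 0 had an unadjusted p under 0.05. DESeq2 and limma-voom also called 0, with 3 and 2 at an unadjusted p under 0.05. The smallest p-values were those of 28S rRNA (log2 fold change -1.41, SE 0.81), a combined DNA, mRNA and snoRNA label (-0.97), 45S rRNA (0.97), tRNA-Glu-TTC (-0.99) and the 3′ end of mt tRNA-His (-1.34), each with an edgeR adjusted p of 0.916. The other uncalled names with the smallest p in the direction of KO were 3 combined labels that include snRNA or miRNA as a bare word, with log2 fold changes of 1.56, 1.09 and 1.36. For tRNA-Glu-CTC the log2 fold change was 0.75 (SE 0.69) with the same adjusted p, with 16851 and 40328 reads in WT and 118378 and 80545 in KO. Of 12 tRNA parents fixed as a list, 10 were tested and 0 were called, and their median log2 fold change was -0.36 beside 0.03 over all names tested. Without WT replicate 1, 6 names were called higher and 2 lower. A fit without 1 library leaves its group with a single one, which is assumed to vary like the pair that remains, so calls from such fits do not support those from all 4 libraries.

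Of 485 cells of class, length and genome match, 2 were called higher in KO (0.412%) and 0 lower (0%) by the same edgeR test. Both lay in the class of broad labels such as DNA or mRNA without a specific name, among genome-unmatched reads. At 21 nt there were 6 and 15 reads in WT and 262 and 288 in KO, a log2 fold change of 3.62 (SE 0.47) with an edgeR adjusted p of 0.00378. At 44 nt there were 9 and 10 reads in WT and 498 and 310 in KO, a log2 fold change of 4.19 (SE 0.58) with the same edgeR adjusted p of 0.00378. KO exceeded WT in both libraries for both cells. Below the threshold, the cells with the smallest p for lower levels in KO were genome-matched mitochondrial tRNA of 45, 44 and 43 nt (log2 fold changes -2.07, -2.08 and -1.98; edgeR adjusted p from 0.140 to 0.171), and unmatched mitochondrial tRNA of 29 nt (-1.69). The next uncalled cells in the direction of KO were unmatched broad labels of 22 nt and 20 nt (2.79 and 2.29). At an unadjusted p under 0.05 there were 23 cells in each direction, and DESeq2 and limma-voom also called 2 higher and 0 lower. Without KO replicate 1 no cell was called, while 9 higher and 6 lower had an unadjusted p under 0.05. Without WT replicate 1 the calls were 49 higher and 32 lower, and without WT replicate 2 they were 10 and 6.

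Single sequences resolved the 2 cells. Of 2877 tested, 10 were higher in KO (0.348%) and 2 lower (0.0695%) by edgeR. One of them, a tRNA-Glu-CTC variant, held 87.8% and 86.1% of the 21-nt cell's KO reads. Another, a 44-nt sequence, held 93.8% and 93.2% of the other cell's KO reads. The calls on cells and on sequences are therefore not separate evidence.

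The tRNA-Glu-CTC variant carries C17T relative to the 21-nt fragment, with the fragment's base first and positions counted from the 5′ end. It had 1 and 0 reads in WT and 230 and 248 in KO, a log2 fold change of 7.37 (SE 1.35) with an edgeR adjusted p of 0.00411. Its pooled share of reads in KO was 299.7 times that in WT, with an exact counting interval from 53.5 to 11861 that covers counting error only. It made up 0.0107% and 0% of the reads of both forms in WT and 0.280% and 0.481% in KO, so that it was a minor form everywhere. The 20-nt fragment had the same variant, with 0 and 0 reads in WT and 16 and 30 in KO.

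The 44-nt sequence was also 1 base away from a genome-matched one. It had 0 and 0 reads in WT and 467 and 289 in KO (edgeR adjusted p 0.00145), which is at least 158-fold higher when WT is set to a floor of 3 reads for the group. Its genome-matched partner had 116 and 34 reads in WT and 203 and 152 in KO. The variant made up 69.7% and 65.5% of the reads of the pair in KO, against 0% in both WT libraries, so unlike the tRNA variant it was the major form in KO. A 43-nt sequence of the same class was also called, with 0 and 0 reads in WT and 61 and 44 in KO.

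A pair of genome-matched sequences of 29 and 30 nt, labelled only as DNA, shared their 3′ end and were called higher in KO. The 29-nt form had 1 and 1 reads in WT and 668 and 374 in KO, and the 30-nt form 0 and 0 reads in WT and 202 and 136 in KO. All sequences that ended in the same 20 bases, 23 in number and 20 to 37 nt long, had 1 and 1 reads in WT and 1073 and 662 in KO. These sums include both called forms, and the set was defined from a sequence already called. The set is therefore not separate evidence.

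The 29-nt 5.8S fragment printed above, 1 base shorter than the abundant 30-nt form, had 0 and 1 reads in WT and 171 and 149 in KO (edgeR adjusted p 0.00596). The 30-nt form had 780 and 2820 reads in WT and 3069 and 5677 in KO, so the shorter form was 0% and 0.0354% of both in WT and 5.28% and 2.56% in KO. A 28-nt 5.8S fragment was called as well, with 1 and 1 reads in WT and 150 and 115 in KO. The sequence that extends it by 1 base, which is not the 29-nt fragment above, had 201 and 1444 reads in WT and 1144 and 1627 in KO. The 28-nt fragment was 0.495% and 0.0692% of the reads of the pair in WT and 11.6% and 6.60% in KO. A 27-nt piRNA-labelled sequence with C25A relative to its genome-matched form had 0 and 2 reads in WT and 249 and 129 in KO.

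The remaining called sequences were less even. A piRNA-labelled 25-nt sequence of the unmatched family that stood out in KO replicate 1 had 9 and 1 reads in WT, 3941 in KO replicate 1 and 49 in KO replicate 2. A 20-nt sequence without annotation had 217 and 14 reads in KO and 0 in WT. Its letters largely repeat part of a common sequencing adapter, and the part of adapter reads in this call was not tested. Lower in KO were a 23-nt 18S fragment, with 7 and 97 reads in WT and 0 in KO, and an unannotated 43-nt sequence, with 12 and 17 reads in WT and 0 and 1 in KO. DESeq2 called 9 sequences higher and 8 lower. limma-voom called 0 of 2877, with 135 higher and 214 lower at an unadjusted p under 0.05. Without KO replicate 1 edgeR called 0, with 78 higher and 65 lower at an unadjusted p under 0.05, and without KO replicate 2 it called 6 higher and 0 lower. Without WT replicate 1 it called 269 higher and 294 lower, and without WT replicate 2 it called 17 and 16.

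**Figure D5:**
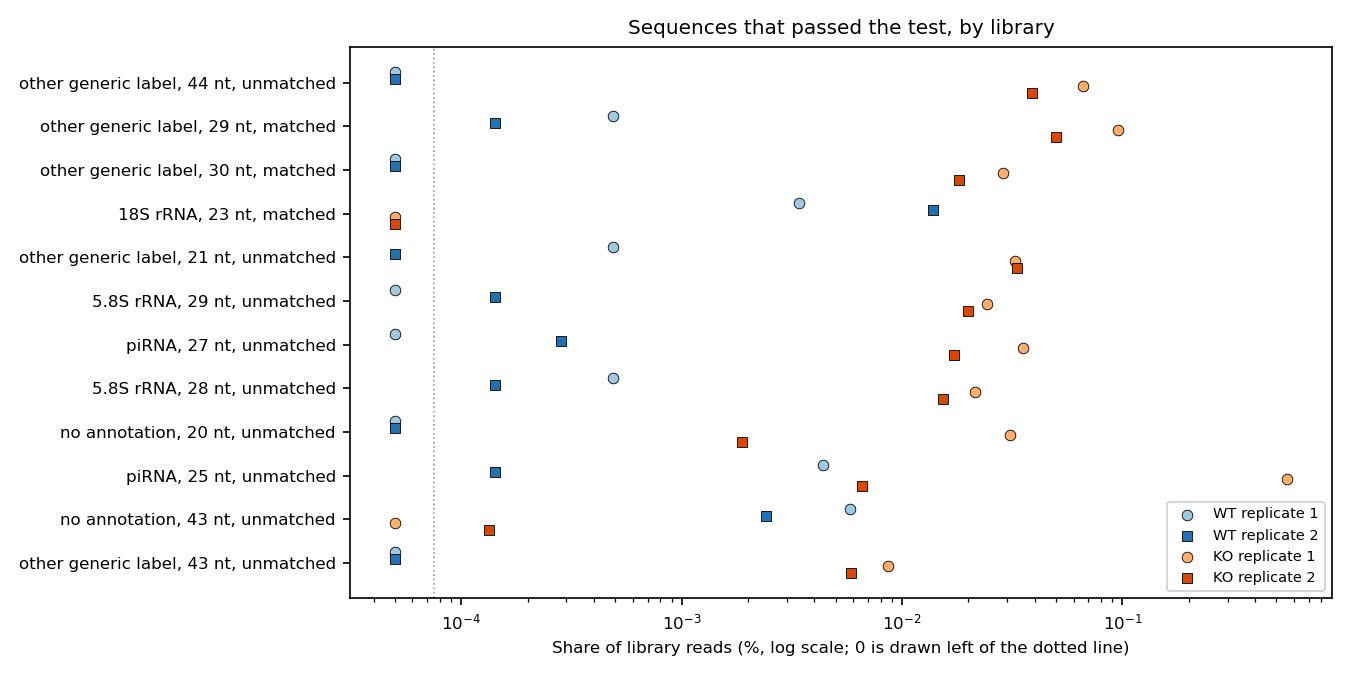
Share of library reads (%, log scale) of the 12 sequences that passed the test, with 1 point per library and values of 0 drawn left of the dotted line. In 10 of the 12 the KO points lie to the right of the WT points, and the piRNA-labelled 25-nt sequence is high in KO replicate 1 only.

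Variants of this kind were then counted over the libraries, a count chosen after the called sequences had been seen. Among genome-unmatched sequences with at least 10 reads in both libraries of one group and at most 1 read in each library of the other, 43 belonged to KO and 1 to WT. Of these, 16 in KO and 0 in WT were 1 substitution away from a genome-matched sequence with at least 10 reads in every library. The count favours KO by construction, since WT replicate 1 was the shallowest library and a sequence needed 10 reads in it to count for WT. The differences in depth and in WT replicate 2's profile move with these counts, and their part in them was not tested. In 15 of the 16, the variant made up less than 15% of the reads of its pair in each KO library. The 16 are not separate variants. They include the called 44-nt and 21-nt sequences, and C17T was counted at both 20 and 21 nt. In most of them the changed base lay near the 3′ end of the read, and C to A was the most frequent change.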

How the data were processed

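The 4 sperm files listed, as deposited by the authors, 1 line per distinct sequence with its length in nt, its whole-number read count, a genome match and an annotation string. They held 207217 distinct sequences of 20 to 45 nt. The submitters' processing notes list DESeq2 1.42.1, RSEM 1.3.1, STAR 2.6.1c and Trim Galore 0.4.5, and the builds mm10 and GRCm38, and do not say which files each was used for. The annotation tool and its allowed mismatches are not given in the sources used here, and a genome match is taken as the authors called it. The library protocol in the sperm labels is written for blastocysts.

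Names inside each annotation string were sorted before reads were summed, which took 322 strings to 214 and left 39 of 1100 sequences with differing strings still differing. Classes followed the first name of the sorted string. Shares were computed over all reads and without nuclear rRNA reads. The widest Wilson half-width of a class share at a confidence level of 95% was 0.203 percentage points, which covers counting error only, since reads are not independent molecules.

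Read counts were tested with edgeR 4.0.16 (quasi-likelihood test) under R 4.3.3 (TMM factors, filterByExpr with the 2 groups, adjustment by Benjamini-Hochberg with a threshold of 0.05, and genotype alone in the model) over annotation names, over cells of class, length and genome match, and over sequences. The script was tested on simulated data. Standard errors came from dividing each log2 fold change by the square root of its F statistic. Alternatives used limma 3.58.1 and DESeq2 1.42.0. Profiles were computed with Python 3.11.15 and pandas 2.3.3, exact intervals with SciPy 1.17.1, and figures with Matplotlib 3.10.9. Read families share their first 16 bases. A ratio against a group with 0 reads used a floor of 3 reads over that group. Mature and hairpin microRNAs came from RefSeq, GRCm38.p6.

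Classes, and up to 5 called sequences per direction, 8 called cells and 4 annotations, were named by p. The remaining called sequences, the pairs of fragment forms, the set with a shared 3′ end, the variant count and the mir-10b read were chosen after their values were seen. The members, lists (microRNAs of spermatogenic, epididymal and other cells, and parent tRNAs) and tests were chosen with earlier results of these data known.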

Additional observations from a re-analysis of the deposited data

How the results depend on the processing

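With all libraries, no annotation name was called under any of the alternatives tried (other factors, tools, filters and read sets, and strings as deposited). Leaving out 1 library gave 0 to 6 higher and 0 to 2 lower annotation names, 0 to 49 higher and 0 to 32 lower cells, and 0 to 269 higher and 0 to 294 lower sequences. The 2 called cells stayed called under RLE factors, library totals, DESeq2, limma-voom, both other filters and without nuclear rRNA reads. Cell calls were 4 higher and 3 lower without a filter, and 0 higher and 3 lower among genome-matched reads only, where neither of the 2 cells exists. Sequence calls were 2 higher and 0 lower with library totals, 8 lower with DESeq2, 0 and 0 with limma-voom, 1 lower without a filter, and 6 higher and 1 lower with at least 10 reads in every library of one group. They were 5 higher without nuclear rRNA reads, and 2 higher and 1 lower among genome-matched reads only. The cause of these shifts was not tested.

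The nuclear rRNA share, KO minus WT, moved from -20.8 percentage points to -2.39 among genome-matched reads and to -2.67 with each distinct sequence counted once. Leaving out 1 library gave -37.4 to -4.21. Of 16 class shares, 8 changed sign with distinct sequences counted once and 7 among genome-matched reads. Among genome-matched reads the 28S log2 fold change reversed to 0.062. That of tRNA-Glu-TTC ranged from -1.43 to 0.10 when 1 library was left out, and it reversed without WT replicate 2. The piRNA share without one family and the 45S share with unannotated reads were chosen after seeing the data.

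The labels number the replicates but say nothing of pairing, and same-numbered libraries did not deviate together (correlation of deviations -0.27 over annotation names, -0.18 over cells and -0.07 over sequences). With the replicate block, 0 annotation names were called, cells gave 4 higher and 4 lower, and sequences 14 higher and 2 lower. With 2 libraries a group, no difference in class shares of any size could pass a threshold in the exact permutation test. WT replicate 1 was also shallow and WT replicate 2 apart in profile.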
